A study of Mus musculus with 24 samples.

Results

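Complement components and regulators were followed in mouse skin through 9 genes, chosen by name from the 18368 genes of the expression table and read in all 24 libraries. They are C1qa, C1qb and C1qc, which encode the chains of the recognition molecule C1q, C1ra and C1s1, its proteases, C4b and C3, the thioester proteins that become covalently attached to a target, Cfb, the protease of the alternative pathway, and C3ar1, the receptor for the C3a fragment. The choice was by name and not by a threshold on a measured value, but earlier results of these data were known when it was made. Each of 12 CD-1 mice (CD1 in the sample labels), 7 weeks of age and in the resting phase of the hair cycle, was wounded at 1 site, and gave a day 3 wound and adjacent unwounded skin, with 4 mice each for abdomen, back and cheek. Wounds were made with a 2 mm punch, a single one on the cheek and a pair on the abdomen or back. In comparisons with the cheek, site and number of wounds therefore cannot be told apart. No gene was altered and no agent was compared. Whole tissue was sequenced, so that more cells of a type and more RNA per cell cannot be told apart in any value below.

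Complement is a cascade of plasma and tissue proteins that tags microbes and damaged cells for uptake and calls in leukocytes. C1q binds antibody complexes and cell debris, and its partner proteases cleave C4 and C2 to form an enzyme that splits C3, while factor B supplies the equivalent enzyme of the alternative pathway and amplifies the deposition of C3b. The liver makes most circulating complement, but in tissues the C1q chains are products of macrophages and dendritic cells, and fibroblasts and epithelia also make C1r, C1s, C3, C4 and factor B.

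Values are FPKM, fragments mapped to a gene scaled to the length of its transcript and to the mapped fragments of the library, which are per length and so allow levels to be compared between genes. The summed FPKM of a library ran from 490830 to 608888, and genes above 0 numbered from 15781 to 16577. Read depth is not given with these values, but the steps between the lowest values of 64 genes put the relative depth of the 24 libraries between 0.955 and 1.03. In unwounded abdomen, the summed level of 6 skeletal muscle markers was 470.4 FPKM in mouse 2 and 2414 in mouse 3, against 14254 in mouse 1 and 13415 in mouse 4, so abdomen results are also given without mice 2 and 3 where this changed a call. The 6 hepatocyte markers summed to between 0.490 and 4.12 FPKM in every library, with Fgb (fibrinogen beta chain) at 0 to 0.11. Keratins and collagens, the defining genes of skin, were high throughout (Krt5 at 1419 FPKM or more and Col1a1 at 1286 or more).

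C3ar1 and Cfb rose at all 3 sites, C1qb rose in the back, and C3 and C4b passed no test at any site. At the threshold for wound-induced genes, an adjusted p under 0.001 (limma, paired by mouse, adjusted over 14423 genes), 2 of the 9 genes were called in the abdomen, where 4.96% of all tested genes were called and 3.92% were higher in wounds. In the back 3 of 9 were called, beside 14.4% of all genes (10.0% higher in wounds). In the cheek 2 of 9 were called, beside 8.69% (6.5% higher in wounds). All of these calls were rises. The replicates are separate mice, and each mouse has its own term. The p value thus rests on how the wound difference within a mouse varies between mice, estimated from all 3 sites together. All 9 genes passed the filter on low values. The median log2 fold change of the 9 genes was 0.39 in the abdomen, 0.62 in the back and 0.59 in the cheek, while the median over all tested genes was -0.01, 0.07 and 0.01 in that order.

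**Figure D1:**
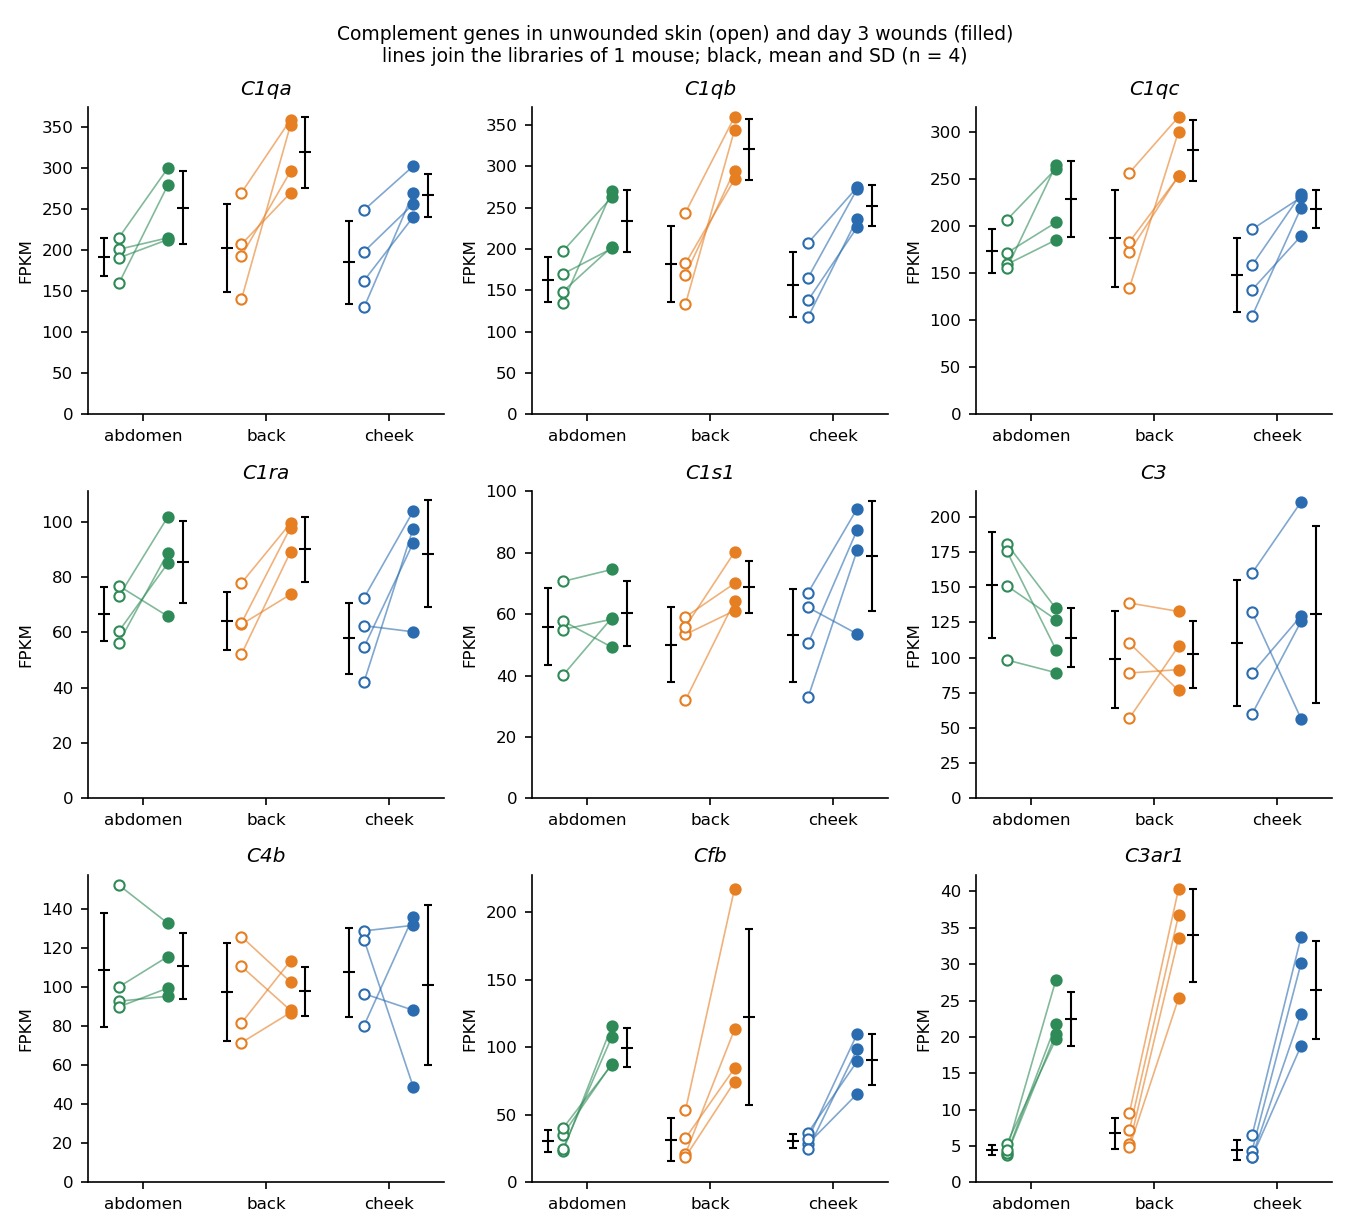
FPKM of the 9 complement genes in each library, by site, with open circles for unwounded skin, filled circles for day 3 wounds, lines joining the libraries of 1 mouse, and black marks for the mean and SD of 4 mice. Cfb and C3ar1 lie wholly above their unwounded levels in wounds at every site, whereas C3 and C4b overlap at every site.

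**Figure D2:**
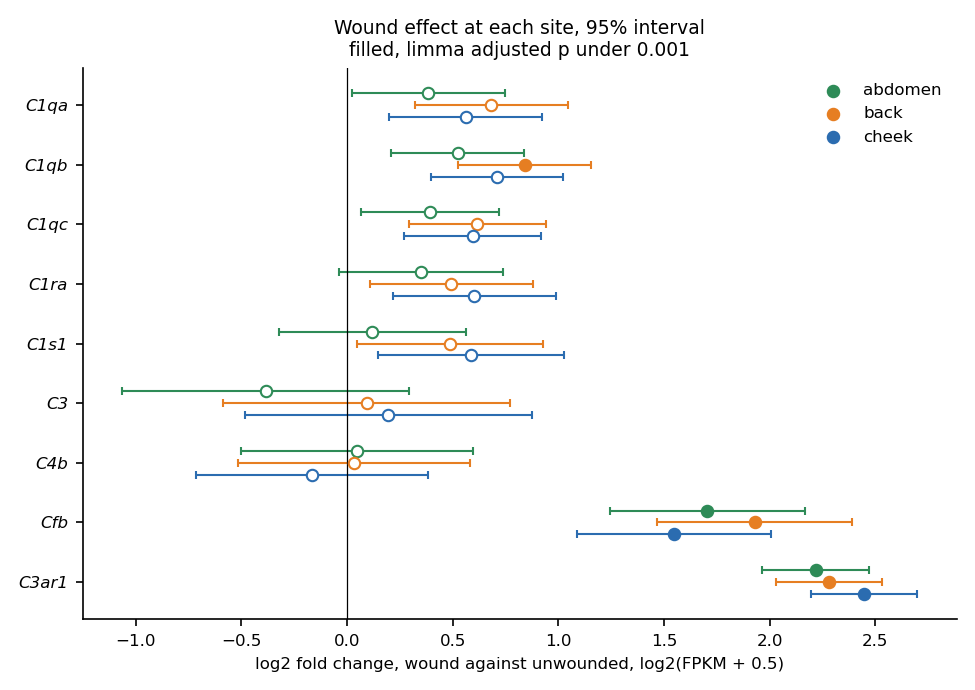
The log2 fold change of each gene, wound against unwounded skin, on the log2(FPKM + 0.5) scale, with 95% intervals; colours are sites and filled circles have an adjusted p under 0.001. C3ar1 reaches 2.22 to 2.45 and Cfb 1.55 to 1.93, the C1q chains 0.39 to 0.84, and the C3 and C4b intervals all include 0.

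C3ar1 encodes the G protein-coupled receptor for C3a, the small peptide released when C3 is cleaved, and is a receptor of myeloid cells. It lies on the minus strand at chr6:122847138-122856161 (GRCm38, GENCODE). In abdomen mice 1 to 4 the unwounded levels were 3.83, 5.34, 3.98 and 4.52 FPKM and the wound levels 20.5, 19.7, 21.7 and 27.8 FPKM. In the back they were 7.21, 5.23, 9.59 and 4.87 in unwounded skin and 36.7, 33.6, 40.3 and 25.3 in wounds. In the cheek they were 6.45, 4.37, 3.53 and 3.49 in unwounded skin and 33.8, 30.2, 23.2 and 18.8 in wounds. Every wound library exceeded every unwounded library, across sites as well as within them. The rise within a mouse was between 3.69-fold and 6.90-fold. On the log2(FPKM + 0.5) scale the fold change was 2.22 ± 0.12 (SE, adjusted p = 2.4e-07) in the abdomen, 2.28 ± 0.12 (1.0e-07) in the back and 2.45 ± 0.12 (6.2e-08) in the cheek. Its position among all genes of the table moved from rank 9658 to 3686 in the abdomen, 7882 to 2549 in the back and 9945 to 3223 in the cheek.

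Cfb encodes factor B, whose cleaved form is the catalytic subunit of the alternative pathway convertase. It lies on the minus strand at chr17:34856374-34862518 (GRCm38), within the class III region of the major histocompatibility complex, and lies 0.085 kb from C2, the paralogous protease of the classical pathway. In abdomen mice 1 to 4 it measured 23.1, 35.5, 40.1 and 24.7 FPKM in unwounded skin and 116, 87.9, 87.3 and 108 in wounds. In the back it measured 21.1, 32.7, 53.5 and 18.9 FPKM in unwounded skin and 113, 84.5, 218 and 74.5 in wounds. In the cheek it measured 36.9, 28.7, 32.1 and 24.6 FPKM in unwounded skin and 89.6, 65.5, 109.9 and 98.8 in wounds. No wound library reached down to the unwounded range, and back mouse 3 was the highest in both states. The log2 fold change was 1.71 ± 0.21 (SE, adjusted p = 0.00015) in the abdomen, 1.93 ± 0.21 (2.8e-05) in the back and 1.55 ± 0.21 (0.0002) in the cheek. The abdomen call was lost without mouse 1 (adjusted p = 0.0012) or mouse 4 (0.0015), and the cheek call without mouse 3 (0.0018) or mouse 4 (0.0014), with the log2 fold change at 1.40 or more in each case. Fitting each site on its own 8 libraries with the mouse as a block also lost both calls, at adjusted p of 0.00632 in the abdomen and 0.00151 in the cheek. C2, the neighbour, measured 18.8 ± 2.48 FPKM (SD, n = 4) in unwounded abdomen and 18.5 ± 5.16 in abdomen wounds, and its log2 fold change lay between -0.15 and 0.12 over the sites with no adjusted p below 0.51.

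C1qa, C1qb and C1qc encode the A, B and C chains, which assemble into the C1q hexamer of heterotrimers, each chain with a collagen-like stalk and a globular head. The 3 genes lie side by side on the minus strand of chromosome 4 within 18.675 kb (GRCm38), C1qb at chr4:136880129-136886187, C1qc at chr4:136889804-136893065 and C1qa at chr4:136895917-136898803. Their group means exceeded those of the other 6 genes in each of the 6 groups, and in unwounded skin their group means ran from 148 FPKM (C1qc, cheek) to 203 (C1qa, back). In abdomen mice 1 to 4, C1qb measured 149, 169.8, 197 and 135 FPKM in unwounded skin and 203, 201, 263 and 270.0 in wounds. In the back it measured 169.0, 183, 244 and 133 in unwounded skin and 295, 284, 359.7 and 344 in wounds. In the cheek it measured 207, 165, 138 and 118 in unwounded skin and 275, 273, 226 and 237 in wounds. At each site the lowest C1qb wound library was above the highest unwounded library, though at the abdomen by only 201 to 197 FPKM. C1qa ran from 131 to 270.2 FPKM in unwounded skin and from 213 to 359 in wounds, and C1qc from 105 to 257 and from 186 to 317. For both, the unwounded and wound libraries of a site overlapped at all 3 sites. Each of the 3 chains was higher in the wound than in the unwounded skin of the same mouse in 12 of 12 mice, as were C3ar1 and Cfb, and 14.4% of all tested genes were higher in all 12 mice.

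C1qb passed the threshold of 0.001 in the back, at a log2 fold change of 0.84 ± 0.15 (SE, adjusted p = 0.00057), and leaving out any 1 of the 4 back mice put its adjusted p between 0.0014 and 0.0040, so this call rests on all 4. Its other values were 0.52 ± 0.15 (adjusted p = 0.016) in the abdomen and 0.71 ± 0.15 (0.0024) in the cheek. C1qa gave 0.39 ± 0.17 (adjusted p = 0.094), 0.68 ± 0.17 (0.0054) and 0.56 ± 0.17 (0.020) in abdomen, back and cheek. C1qc gave 0.39 ± 0.15 (0.062), 0.62 ± 0.15 (0.0053) and 0.59 ± 0.15 (0.0085). Thus the chains were between 1.31 and 1.76 times as high in wounds by group means. At the looser threshold of 0.05, 3 of the 9 genes were higher in abdomen wounds, 6 in back wounds and 7 in cheek wounds, beside 16.9%, 28.0% and 19.7% of all tested genes, and 0 were lower, beside 16.0%, 17.9% and 16.9%. Taking both directions, 32.9%, 45.9% and 36.6% of all tested genes passed 0.05. Counting libraries that did not overlap and were higher in wounds gave 3 of 9 genes in the abdomen, 4 in the back and 3 in the cheek, beside 13.4%, 25.0% and 16.7% of all tested genes (24.4%, 40.4% and 31.7% in either direction).

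The share of C1qb in the summed FPKM of the 3 chains was higher in the wound of each mouse except cheek mouse 4. In that mouse it was 33.3% in unwounded skin and 32.6% in the wound. The C1qb share was 29.2% to 31.9% in unwounded abdomen and 31.9% to 33.6% in abdomen wounds, 31.6% to 32.6% and 34.5% to 35.2% in the back, and 31.6% to 33.3% and 32.6% to 35.7% in the cheek. These shares are a description, chosen after the values were seen, and were not tested. The back shares did not overlap and the cheek shares did. The abdomen shares all but met, at 31.886% in unwounded mouse 2 and 31.888% in the wound of mouse 3.

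The promoters of C1qb and C3ar1, which rose, and of C1s1 and C3, which were not called at 0.001, are shown for comparison, as the 250 bases before the start site in RefSeq (GRCm38.p6), 5′ to 3′ on the strand of the gene, with motif matches in capitals. They are C1qb (chr4:136886201-136886450, minus strand), C3ar1 (chr6:122856158-122856407, minus), C1s1 (chr6:124542360-124542609, minus) and C3 (chr17:57228137-57228386, minus).
C1qb: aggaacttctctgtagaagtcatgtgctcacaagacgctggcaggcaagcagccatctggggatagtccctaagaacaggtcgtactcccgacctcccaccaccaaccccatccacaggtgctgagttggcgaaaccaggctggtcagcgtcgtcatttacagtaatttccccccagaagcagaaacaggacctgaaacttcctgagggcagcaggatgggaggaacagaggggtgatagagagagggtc
C3ar1: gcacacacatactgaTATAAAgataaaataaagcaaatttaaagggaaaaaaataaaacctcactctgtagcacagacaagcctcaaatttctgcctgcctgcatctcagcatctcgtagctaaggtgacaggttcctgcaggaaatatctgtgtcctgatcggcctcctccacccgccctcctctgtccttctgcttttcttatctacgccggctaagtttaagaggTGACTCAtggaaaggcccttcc
C1s1: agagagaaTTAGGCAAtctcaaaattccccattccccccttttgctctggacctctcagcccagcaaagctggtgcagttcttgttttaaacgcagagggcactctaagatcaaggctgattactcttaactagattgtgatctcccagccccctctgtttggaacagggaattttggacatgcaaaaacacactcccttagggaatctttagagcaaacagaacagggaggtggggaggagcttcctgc
C3: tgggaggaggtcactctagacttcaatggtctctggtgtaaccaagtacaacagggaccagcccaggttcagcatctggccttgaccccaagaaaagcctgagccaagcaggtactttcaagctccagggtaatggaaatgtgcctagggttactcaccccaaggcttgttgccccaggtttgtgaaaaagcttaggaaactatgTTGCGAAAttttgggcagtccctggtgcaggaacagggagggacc
The search covered both strands for a TATA box (TATAAA), C/EBP (TTGCNNAA), AP-1 (TGA and TCA around any 1 base), Ets (GAGGAAGT), STAT (TTCNNNGAA) and the interferon response element, and no 2 matches overlapped. In C3ar1 the capitals mark TATAAA at -235 and the AP-1 match TGACTCA at -22, in C1s1 a C/EBP match on the opposite strand at -242, and in C3 the C/EBP match TTGCGAAA at -45, counted from the start site. C1qb held none of these letters in this window. Of the windows not shown, that of C1qc held an Ets match on the opposite strand at -195, and that of C1ra held none. Both overlap an exon of their own gene. Of 32851 promoters of the same length, 12.4% held the TATA letters, 9.56% the C/EBP letters, 6.75% the AP-1 letters, 2.44% the Ets letters, 7.02% the STAT letters and 2.98% the interferon response letters. Of the 9 genes, 6 had a promoter entry, in 7 windows, and C1qa, C4b and Cfb had none. C1s1 has a second window from a later start site (chr6:124542322-124542571, minus), which overlaps its own exon and held no match.

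C1ra and C1s1 encode C1r and C1s, the serine proteases that travel with C1q, C1r activating C1s and C1s cleaving C4 and C2. They are neighbours on chromosome 6 within 29.955 kb (GRCm38), C1ra at chr6:124512405-124523443 on the plus strand and C1s1 at chr6:124530345-124542359 on the minus strand. Both have a near-identical copy close by, C1rb and C1s2, so reads may have been divided between the copies and the values are uncertain to that extent. C1rb measured at most 4.85 FPKM and C1s2 at most 16.7. C1s1 in mice 1 to 4 was 40.1, 70.7, 57.8 and 55.0 FPKM in unwounded abdomen and 58.8, 74.6, 49.3 and 58.4 in abdomen wounds. In the back it was 32.0, 53.4, 59.1 and 55.9 in unwounded skin and 64.2, 61.2, 70.03 and 80.2 in wounds. In the cheek it was 67.0, 62.2, 50.5 and 32.9 in unwounded skin and 94.4, 53.6, 87.5 and 80.8 in wounds. The back libraries did not overlap, and those of the other sites did. C1ra ran from 42.1 to 77.8 FPKM in unwounded skin and from 60.2 to 104 in wounds, with overlap at every site.

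Both genes were higher in the wound in 10 of 12 mice, the exceptions being abdomen mouse 3 and cheek mouse 2 for each gene. The log2 fold change of C1ra was 0.35 ± 0.18 (SE, adjusted p = 0.15) in the abdomen, 0.49 ± 0.18 (0.038) in the back and 0.60 ± 0.18 (0.019) in the cheek. That of C1s1 was 0.12 ± 0.20 (0.68), 0.49 ± 0.20 (0.068) and 0.59 ± 0.20 (0.039), in the same order. None of these values reached 0.001. C1s2, the copy of C1s1, gave 0.11 ± 0.17 (0.64), 0.45 ± 0.17 (0.046) and 0.47 ± 0.17 (0.047).

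C3 is the central protein of all pathways, cleaved to C3a and to C3b, which coats targets. It lies at chr17:57203970-57228136 on the minus strand (GRCm38). In abdomen mice 1 to 4 it measured 98.3, 181, 176 and 151 FPKM in unwounded skin and 89.3, 135, 106 and 127 in wounds. In the back it measured 57.1, 110.2, 139 and 89.1 in unwounded skin and 108, 76.7, 133 and 91.4 in wounds. In the cheek it measured 159.9, 132, 88.9 and 60.0 FPKM in unwounded skin and 211, 56.5, 129.6 and 126 in wounds. C3 was lower in the wound in 4 of 4 abdomen mice but in 2 of 4 back mice and 1 of 4 cheek mice, and the groups overlapped at every site. The log2 fold change was -0.38 (95% interval -1.06 to 0.29, adjusted p = 0.36) in the abdomen, 0.09 (-0.59 to 0.77, 0.83) in the back and 0.19 (-0.48 to 0.87, 0.66) in the cheek. Cheek mouse 2 held the lowest C3 and C4b of all wound libraries, and without it the cheek value of C3 was 0.67 with an adjusted p of 0.047.

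C4b encodes C4, the classical pathway protein cleaved by C1s, and lies at chr17:34728380-34743882 on the minus strand (GRCm38), in the same class III region as Cfb. Its near-identical copy C4a measured at most 1.44 FPKM, and reads may have been divided between them. In abdomen mice 1 to 4 C4b measured 92.6, 152, 89.7 and 99.9 FPKM in unwounded skin and 95.2, 132, 99.4 and 115 in wounds. In the back it measured 71.4, 110.4, 126 and 81.5 in unwounded skin and 86.8, 87.9, 102 and 113 in wounds. In the cheek it measured 129, 124, 96.5 and 80.2 in unwounded skin and 131, 49.0, 88.0 and 136 in wounds. The groups overlapped at every site, and C4b was higher in the wound in 7 of 12 mice. The log2 fold change was 0.05 (95% interval -0.50 to 0.60, adjusted p = 0.90) in the abdomen, 0.03 (-0.52 to 0.58, 0.93) in the back and -0.17 (-0.72 to 0.38, 0.63) in the cheek. The upper limits lay above the estimated C1q rises of the same site in the abdomen (0.39 to 0.52) and below them in the back (0.62 to 0.84) and cheek (0.56 to 0.71). The 95% intervals of the C1q chains began at 0.29 to 0.53 in the back and 0.20 to 0.40 in the cheek. A difference between C4b and the C1q chains was not tested. Leaving out 1 cheek mouse put the cheek value of C4b between -0.48 and 0.22. The ratio of C3 to Cfb fell outside its unwounded range in every wound library, at 2.43 to 6.10 in unwounded skin and 0.610 to 2.35 in wounds, which describes the rise of Cfb beside the levels of C3.

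Marker genes of several cell types also differed between wounds and unwounded skin. Counts of markers here are at a limma adjusted p under 0.001. Over all tested genes, 3.92%, 10.0% and 6.5% were higher in abdomen, back and cheek wounds at this threshold. The shares lower in wounds were 1.04%, 4.37% and 2.19%. Of 10 macrophage markers, 7 rose in abdomen wounds and 8 in back and in cheek wounds, and their summed level was 216 to 351 FPKM in unwounded skin and 604 to 1019 in wounds. Of 8 neutrophil markers, 6, 7 and 7 rose, and their sum was 8.73 to 38.0 FPKM in unwounded skin and 368 to 2444 in wounds. Most of the highest sums came from S100a8 (up to 994 FPKM) and S100a9 (up to 1348), the next highest marker being Clec4d (up to 112). Ly6g was at 0 in the lowest library and at most 0.90. The 7 fibroblast markers summed to 9332 to 23474 FPKM in unwounded skin and 6079 to 12783 in wounds, and 1 of them fell in the back at 0.001 and none rose. Of 5 endothelial markers, 1 rose in the abdomen, 3 in the back and 2 in the cheek, and their sum was 68.7 to 105 FPKM in unwounded skin and 96.8 to 129.6 in wounds. Of 6 markers of interfollicular epidermis, 2 rose at each site, and their sum was 7237 to 14895 FPKM in unwounded skin and 12291 to 22209 in wounds. The 6 skeletal muscle markers summed to 470.4 to 22158 FPKM in unwounded skin and 1600 to 6417 in wounds. The part of these cell types in the complement results was not tested. Against Csf1r, the receptor for a macrophage growth factor, the summed C1q chains stood at 6.93 to 9.91 in unwounded skin and 6.09 to 11.9 in wounds, whereas C3ar1 stood at 0.058 to 0.120 and 0.215 to 0.371, with no overlap. The Csf1r level itself was 35.6 to 79.8 FPKM in unwounded skin and 67.5 to 115 in wounds. Csf1r is 1 of the 10 macrophage markers and was chosen after its values were seen. The median sum of all 10 went from 266 to 672 FPKM in abdomen, 262 to 884 in back and 271 to 831 in cheek. The median C1q sum went from 521 to 716, 555 to 921 and 478 to 745 FPKM in that order. C1q thus rose less than this marker sum. The sum is weighted to its highest genes, with Cd14 at 8.33 to 404 FPKM and Cd68 at 42.4 to 247 over the 24 libraries. Mrc1, another of the 10, ran from 32.2 to 79.8 FPKM. The ratio thus depends on the marker chosen, and C1q is not shown to rise less than macrophage markers in general.

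Between sites, no gene of the 9 passed an adjusted p under 0.05. In unwounded skin 0 of 9 were called in each of the 3 comparisons (limma, 12 unwounded libraries, adjusted over 13956 genes), where 2.67% of tested genes were called for back against abdomen, 2.57% for cheek against abdomen and 1.05% for cheek against back. Without adjustment, 1, 0 and 1 of the 9 had p under 0.05, beside 22.0%, 19.0% and 21.6% of tested genes. The single gene was C3ar1, at 0.52 (95% interval 0.05 to 0.99, adjusted p = 0.19) for back against abdomen and -0.53 (-1.01 to -0.06, 0.19) for cheek against back. Over all genes the median of these comparisons was -0.12 and 0.14, and relative to it the C3ar1 values were 0.63 and -0.68. C3 for back against abdomen stood at -0.65 (-1.39 to 0.09, adjusted p = 0.285), or -0.53 relative to that median. Its unwounded group means were 151 ± 37.7 FPKM (SD, n = 4) in the abdomen, 98.8 ± 34.4 in the back and 110 ± 44.5 in the cheek.

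In the wounds, 0 of 9 genes were again called in each comparison (12 wound libraries, adjusted over 14023 genes), where 1.27% of tested genes were called for back against abdomen, 10.8% for cheek against abdomen and 2.5% for cheek against back. Without adjustment, 4, 0 and 2 of the 9 had p under 0.05, beside 16.5%, 31.6% and 26.1% of tested genes. For back against abdomen these were the C1q chains and C3ar1, with C1qb at 0.46 (95% interval 0.19 to 0.73, adjusted p = 0.086), C1qa at 0.35 (0.06 to 0.64, 0.22), C1qc at 0.30 (0.03 to 0.58, 0.26) and C3ar1 at 0.58 (0.17 to 0.99, 0.15). For cheek against back they were C1qb at -0.34 (-0.61 to -0.08, 0.11) and C1qc at -0.36 (-0.64 to -0.08, 0.11). C1qb averaged 234 ± 37.5 FPKM (SD, n = 4) in abdomen wounds, 321 ± 36.8 in back wounds and 252 ± 24.7 in cheek wounds. Unwounded libraries of a pair of sites overlapped for all 9 genes, whereas 13.3% of tested genes did not overlap between back and abdomen, 10.6% between cheek and abdomen and 14.6% between cheek and back. Wound libraries of back and abdomen did not overlap for 1 of the 9 genes (C1qb), beside 9.16% of tested genes, and those of cheek and back for 2 (C1qb and C1qc), beside 21.3%. Those of cheek and abdomen overlapped for all 9, beside 19.0% of genes that did not. Without cheek mouse 2, C1s1 was higher in cheek than abdomen wounds at 0.55 (adjusted p = 0.047), against 0.37 (0.16) with all mice.

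**Figure D3:**
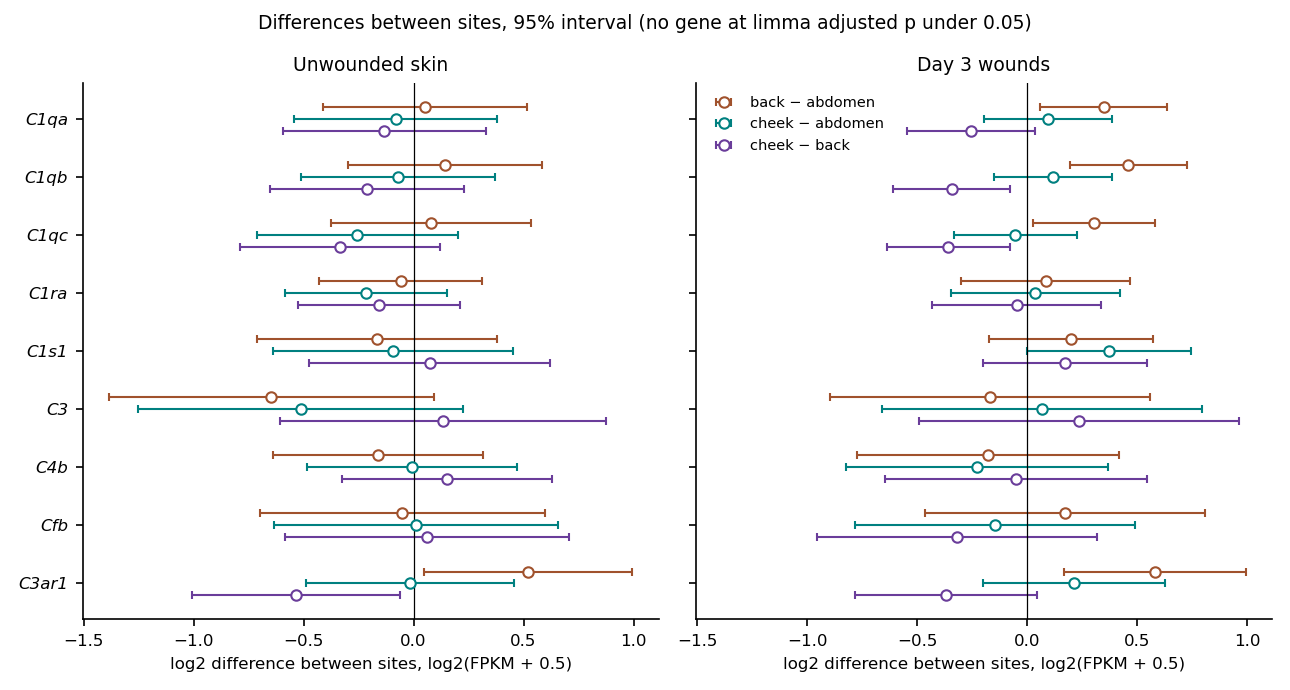
Differences between sites for each gene, in unwounded skin (left) and day 3 wounds (right), on the log2(FPKM + 0.5) scale with 95% intervals. No value has an adjusted p under 0.05, and the values farthest from 0 are C3 at -0.65 in unwounded back against abdomen and C3ar1 at 0.58 in back against abdomen wounds.

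The wound effect itself was compared between sites by an F test of the 3 differences among the 3 wound effects. Of the 9 genes 0 were called at an adjusted p under 0.05, where 0.0208% of 14423 genes were called. Their adjusted p values lay between 0.60 (C1s1) and 0.90 (C4b), and 0 had an unadjusted p under 0.05, beside 12.9% of tested genes. The intervals were wide for some of them. For C3 the cheek effect exceeded the abdomen effect by 0.58 (95% interval -0.38 to 1.54), and for C3ar1 by 0.23 (-0.13 to 0.58). The presence of the C1qb call at the back and not at the other sites is therefore not shown to be a difference between sites, its back effect minus its abdomen effect being 0.32 (-0.13 to 0.76, adjusted p = 0.47).

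Within groups the genes varied in blocks. Taking each library's deviation from the mean of its group, on the log2(FPKM + 0.5) scale, over 24 libraries, the C1q chains followed each other with a Pearson's r of 0.95 to 0.98. C1ra, C1s1, C3 and C4b formed a second block, with r between 0.78 and 0.89. Between the blocks r ran from 0.32 to 0.53. C3ar1 was nearest to C1qb (0.65) and Cfb to C3 (0.62). These correlations describe libraries that share their depth and the make-up of the biopsy, and no p is attached. The mean of the fibroblast markers gave r of 0.75 to 0.79 with the genes of the second block and 0.31 to 0.38 with the C1q chains. The mean of the macrophage markers gave 0.60 to 0.65 with the C1q chains and 0.79 with C3ar1. For Cfb, r was 0.67 with the macrophage markers and 0.34 with the fibroblast markers. The mean of the adipocyte markers gave 0.57 to 0.61 with the C1q chains, as high as the macrophage markers for C1qa (0.61 against 0.60), and 0.63 with C3.

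**Figure D4:**
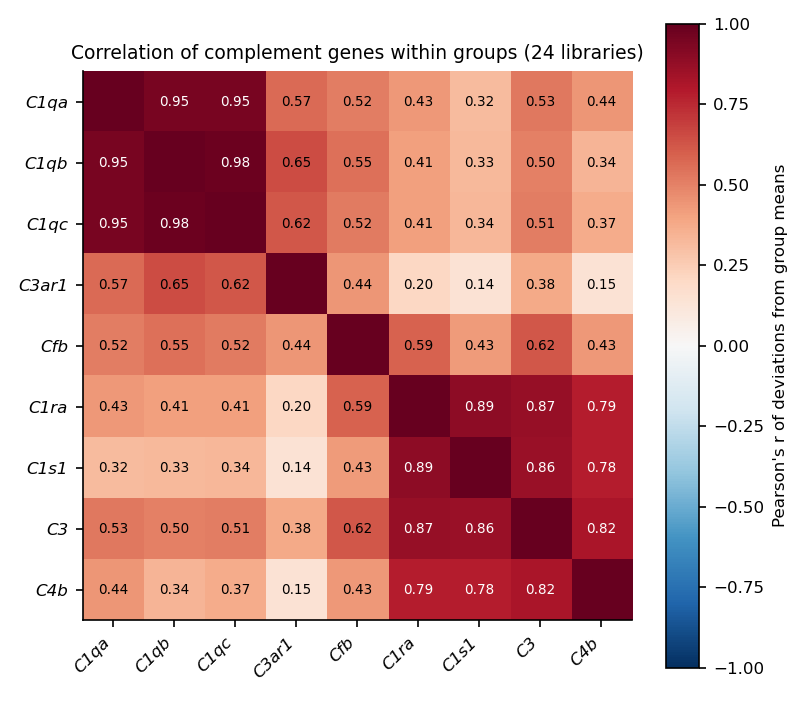
Pearson's r between the complement genes, computed on deviations from group means over 24 libraries, with colour from -1 to 1. The C1q chains (0.95 to 0.98) and the set C1ra, C1s1, C3 and C4b (0.78 to 0.89) stand out as blocks.

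The genes most like each member across all 24 libraries were ranked by Pearson's r of levels. C1qa was nearest to C1qb (0.971) and C1qc (0.960), followed by Rab3il1 (0.938). C3ar1 was nearest to Cyth4 (0.988), Apobec1 (0.984) and Cd300a (0.979). Cfb was nearest to Slc7a7 (0.959), Ms4a6b (0.948) and Slc15a3 (0.948). C1s1 was nearest to its copy C1s2 (0.915), then C1ra (0.871) and Rassf2 (0.822). C3 was nearest to Bicc1 (0.763), C4b (0.762) and Pgghg (0.729), and C4b to C3 (0.762), Arsi (0.690) and Lgi2 (0.666). On deviations from group means, C3 was nearest to C1s2 (0.901), Serping1 (0.889), which encodes the C1 inhibitor, and C1ra (0.869). C4b was nearest to C1qtnf1 (0.918), C6 (0.905) and Serping1 (0.862).

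Other complement genes came from a list of 47, of which 45 were in the table and 31 passed the filter of the wound fit. At 0.001, 5 rose and 2 fell in the abdomen, 7 rose and 4 fell in the back, and 8 rose and 1 fell in the cheek, beside 3.92%, 10.0% and 6.5% of all tested genes higher and 1.04%, 4.37% and 2.19% lower in wounds. Their median log2 fold change was 0.08, 0.17 and 0.13, against -0.01, 0.07 and 0.01 over all tested genes.

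Among 8 receptors, 7 passed the filter, and 4 rose in abdomen, 5 in back and 6 in cheek wounds. Itgam and Itgb2 encode the subunits of complement receptor 3, which binds fragments of C3b, and Itgax pairs with Itgb2 as complement receptor 4. Itgam went from 8.88 ± 2.29 to 23.1 ± 2.77 FPKM (SD, n = 4) in the abdomen, from 8.70 ± 2.36 to 36.0 ± 5.82 in the back and from 8.49 ± 1.56 to 30.1 ± 6.35 in the cheek. Its log2 fold change was 1.35, 2.01 and 1.76 (adjusted p at most 5.1e-05). Itgb2 rose by 1.56, 1.98 and 1.84, Itgax by 1.17, 1.71 and 1.74, and Cd93, a receptor of endothelium and myeloid cells, by 1.24, 1.56 and 1.65. C5ar1, the receptor for C5a, rose in back (1.55) and cheek (1.504). These genes are also products of leukocytes, and the part of the leukocyte markers above in their rise was not tested.

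Among 17 regulators, 11 passed the filter, and 1 rose at every site while 1 fell in the abdomen, 2 in the back and 1 in the cheek. The riser was Cpn1, the catalytic chain of carboxypeptidase N, which trims C3a and C5a. It was listed at 0 to 0.11 FPKM in unwounded skin and reached 0.46 to 3.61 FPKM in wounds, a level near the floor of the scale. Without abdomen mouse 1, 2 or 3 its adjusted p there was 0.00217, 0.00402 or 0.00207, and without any 1 back mouse 0.0011 to 0.0018. Without abdomen mice 2 and 3 it was 0.00628. The abdomen call was also lost with 1 in place of 0.5 added to FPKM (log2 fold change 1.14, adjusted p = 0.002). With no filter the adjusted p there was 0.00129, and with quantile normalization 0.00121. The fallers were the membrane regulators Cd55 (decay-accelerating factor), at -0.99 in the abdomen and -0.998 in the back, and Cd59a, which blocks the membrane attack complex, at -0.87 in the back and -0.84 in the cheek. Cd55 averaged 28.9 ± 2.45 FPKM (SD, n = 4) in unwounded abdomen and 14.3 ± 1.18 in abdomen wounds. Serping1, the C1 inhibitor, passed the threshold at no site, at -0.40, -0.50 and -0.28 in abdomen, back and cheek.

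Among 14 recognition molecules and proteases, 9 passed the filter. Cfp, properdin, which stabilises the alternative pathway convertase, rose in back (1.35, adjusted p = 3.2e-05) and cheek (1.08, 0.00025), and measured 0.91 in the abdomen without passing. Cfd, factor D, the protease that activates factor B and a product of adipocytes, fell in the back from 1017 ± 269 to 236 ± 61.5 FPKM (SD, n = 4; log2 fold change -2.10, adjusted p = 0.00065), a call lost without any 1 back mouse (adjusted p 0.0011 to 0.0051), and measured -1.63 in the abdomen and -1.54 in the cheek. The 6 adipocyte markers summed to 439 to 1279 FPKM in unwounded skin and 354 to 807 in wounds, and 2 of them fell in the back at 0.001. Fcna, ficolin A, fell in the abdomen (-1.22, adjusted p = 0.00055). Of 8 genes of C4 and the terminal pathway, 4 passed the filter and C6 alone was called, falling in the back (-1.50, adjusted p = 0.00063). For the wound calls of Fcna, C6, Cfp, C5ar1, Cd55 and Cd59a, results without single mice are not given by gene. The other complement genes together gave 7, 11 and 9 calls in abdomen, back and cheek. With 1 mouse left out these counts were 3 to 4, 6 to 8 and 5 to 8.

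**Figure D5:**
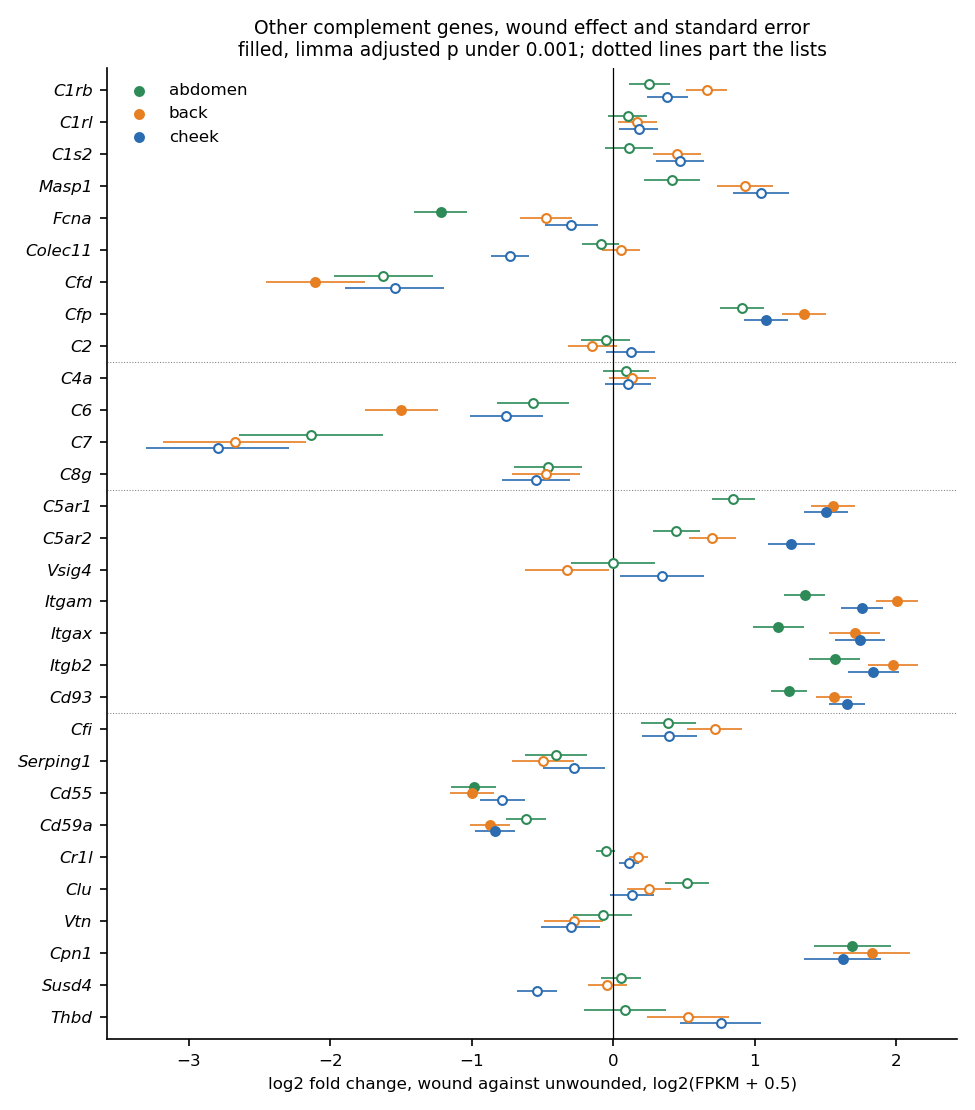
The log2 fold change and its standard error, wound against unwounded skin, for other complement genes that passed the filter, coloured by site, with filled circles for an adjusted p under 0.001 and dotted lines between the lists (recognition and proteases, C4 and terminal, receptors, regulators). The receptors Itgam, Itgb2, Itgax and Cd93 and the regulator Cpn1 are filled at all 3 sites on the right, and Cfd, C6, Cd55, Cd59a and Fcna are filled on the left at 1 or 2 sites.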

How the data were processed

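RNA-seq was performed on whole skin from 12 mice, as 24 libraries. The authors had paired-end reads of 100 bases mapped by a sequencing provider (HISAT2, mm10) and to transcripts with Bowtie2 2.2.5, and RSEM 1.2.12 gave the deposited FPKM values, rounded to 2 decimals and not scaled between libraries. The authors also deposited 18 columns of their own comparisons (DESeq2 log2 fold change, p-value), which were not used. No column of per-sample values was left out, and no 2 libraries held identical values.

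For each test, log2(FPKM + 0.5) entered limma 3.58.1 (R 4.3.3, statmod 1.5.0) with trended, robust moderation. A gene was tested if 4 or more of the fitted libraries reached 0.5 FPKM, and p values were adjusted by Benjamini-Hochberg over all tested genes. Fold changes on this scale understate changes of low genes. Wound effects came from the 24 libraries together, each mouse having its own term (adjusted p under 0.001), and site differences from 12 unwounded or 12 wound libraries (0.05). The pairing comes from the labels, which give each mouse both its libraries. Deviations from group means correlated at 0.322, 0.348 and 0.281 on average between the libraries of 1 mouse in abdomen, back and cheek, with a lowest pair of -0.030 in the abdomen, and at -0.108, -0.116 and -0.0958 between different mice. In simulated data with known changes, the share recovered in the back wound comparison was 70.0%, for 200 genes changed by 1 on the log2 scale among 14250. These genes were drawn from those above a low level. They were a smaller share than the 14.4% of genes called in the real back comparison. The C1q, C1ra and C1s1 effects were smaller than 1, so the 70.0% does not give the chance of calling them.

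The 9 genes and all lists were chosen with earlier results of these data known. Besides the 9 genes, named are the other complement genes with the 4 largest changes among those called in a comparison, the likeness ranking, and genes chosen after their values were seen (Cfd, C2, C1s2, Serping1, C7, C5ar1, Cd55, Cd59a, Fcna, Csf1r, the genes near 0, and others not among those 4). Scale, filter, normalisation, moderation, pairing and each mouse were varied. Gene positions are from GENCODE M21 (GRCm38) and promoters from RefSeq. Mbl1 and Mbl2 were not analysed here, and 1 gene counted among the other complement genes is not reported by name or plotted.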

Additional observations from a re-analysis of the deposited data

Results flagged for a closer look

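In unwounded abdomen, C4b measured 152 FPKM in mouse 2, while the next highest of the 4 mice measured 99.9 FPKM. The gap to that mouse was 0.836 of the range of the group, above Dixon's 95% critical value for 4 samples. Of 54 groups of 4 libraries checked (9 genes in 6 groups), this was the 1 that passed it, where chance gives about 1 in 20. By the limma F test, 0 of the 9 genes had a wound effect that differed between sites, with 0 at an unadjusted p under 0.05.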

How the results depend on the processing

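The wound calls of the 9 complement genes kept their direction under every alternative, and C3ar1 stayed called at all 3 sites in each. Leaving out 1 mouse gave 1 to 2 calls in the abdomen, 2 in the back and 1 to 2 in the cheek, and 0 to 1 for cheek against abdomen wounds. It gave 0 for the other site comparisons and for the F test. C1qb in the back also missed 0.001 with no filter (adjusted p = 0.00105), median-ratio scaling (0.00163) or quantile normalization (0.00165). With a threshold of 0.05, 6 genes were called in the back and 7 in the cheek. Leaving out 1 mouse put these counts at 5 to 6 and 4 to 8. Median-ratio scaling, quantile normalization and no filter each gave 5 in the back and 6 in the cheek. Each site on its own 8 libraries gave 7 and 5. Under median-ratio scaling and quantile normalization, C1ra in the back had an adjusted p of 0.099 and 0.14, and C1s1 in the cheek 0.067 and 0.062. Among 679 alternative values of 48 single-gene results, 0 reversed a call and 85 lost one.

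The replicate block was the mouse. With each site fitted on its own 8 libraries with the block, 1 of the 9 genes was called in the abdomen and 1 in the cheek, and 1 and 2 of the other complement genes. Without the block, the 9 genes gave 2, 3 and 2 calls in abdomen, back and cheek. Across sites a mouse number is shared by different animals. With it as a block, the other complement genes gave 0 calls for unwounded cheek against abdomen and 3 for cheek against abdomen wounds.

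For the other complement genes, leaving out 1 mouse gave 3 to 4 wound calls in the abdomen, 6 to 8 in the back and 5 to 8 in the cheek. It gave 0 to 1 for unwounded cheek against abdomen, 0 to 1 for back against abdomen wounds, 0 to 5 for cheek against abdomen wounds and 0 to 1 for cheek against back wounds. With a threshold of 0.05 they gave 14, 18 and 17 wound calls, and with no filter 3 in the abdomen. Without abdomen mice 2 and 3, an alternative chosen after seeing the data, they gave 3 in the abdomen and 0 for unwounded cheek against abdomen, back against abdomen wounds and cheek against abdomen wounds. Median-ratio scaling and quantile normalization gave 0 for unwounded cheek against abdomen. For cheek against back wounds, no filter, quantile normalization and all 24 libraries as 6 groups each gave 0. The cause of these changes was not tested. With 4 mice a group, C3 and C4b have intervals over 1 log2 unit wide, and FPKM without counts gives no counting error.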

Other observations

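Beyond the wound effects, single other complement genes were called between sites, at 1 of 27 in each comparison of unwounded skin. They are given as single genes and not as a trait of complement genes. C6, a component of the membrane attack complex, was higher in unwounded back skin, at 19.6 ± 3.20 FPKM (SD, n = 4), than in abdomen (4.74 ± 1.62) or cheek (4.66 ± 2.35), with a log2 difference of 1.97 (limma adjusted p = 0.0055) against abdomen and -2.05 (0.0041) for cheek against back. Vtn, vitronectin, which binds terminal complexes, was higher in unwounded cheek than abdomen (0.84, adjusted p = 0.033), a call lost without abdomen mouse 2 or 3 or cheek mouse 1, 2 or 4 (adjusted p 0.0587 to 0.104). Among 27 other complement genes tested in unwounded skin, 1 was called in each comparison, beside 2.67%, 2.57% and 1.05% of all genes.

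In wounds, Cfp was higher in the back than in the abdomen (0.65, adjusted p = 0.022) and lower in the cheek than in the back (-0.49, 0.044), with 94.1 ± 14.5 FPKM (SD, n = 4) in back, 59.4 ± 4.94 in abdomen and 66.5 ± 6.55 in cheek wounds. Both calls were lost without any of several single mice (adjusted p 0.055 to 0.115). Cfp was the 1 other complement gene called in each of these 2 comparisons, beside 1.27% and 2.5% of all tested genes. Cheek wounds were higher than abdomen wounds in C5ar2 (0.96), Masp1 (0.96), Cd93 (0.70) and Vtn (0.61) and lower in Colec11 (-0.75), with adjusted p between 0.027 and 0.036, beside 10.8% of all genes called. Of these calls, none remained without cheek mouse 3 or without abdomen mice 2 and 3.

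Several complement genes were near 0 in this skin. Of the 45 in the table, 14 stayed under 1 FPKM in every library, among them Hc, which encodes C5 (at most 0.08 FPKM), C8a (0.15), C8b (0.06), C9 (0.49), Fcnb (0.06) and Cr2 (0.02). By contrast C7 reached 143 FPKM, and its wound effect was -2.13, -2.67 and -2.79 in abdomen, back and cheek, with adjusted p of 0.0097, 0.0018 and 0.0019, each short of 0.001.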
